A study of Mus musculus with 2 samples.

Results

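Low-gene red cell barcodes are droplets whose RNA was almost wholly haemoglobin messenger RNA and in which few different genes were seen. They were chosen by a rule on the deposited counts: fewer than 300 detected genes, and at least 80% of UMIs (unique molecular identifiers, 1 per captured transcript) from genes whose symbols start with Hba- or Hbb-. The rule took 275 of 1610 barcodes in library 1 (17.1%) and 60 of 720 in library 2 (8.33%), 335 of 2330 in all (14.4%). Cochleae, the spiral organs of hearing, came from 5 to 8 wild-type C57BL/6 mice bought at 20 days of age and carrying no transgene or treatment named in the labels, and trypsin was used to free the cells. The study asked which genes the cochlea expresses at that age. Its 2 libraries form 1 group, and the labels do not say whether they came from separate animals or cell suspensions. The p-values below rest on how differences between 4 classes of barcodes varied from 1 library to the other. For most genes that variation was taken from a trend over all genes, and it may be technical. No contrast of strains, treatments or ages exists here, and the comparisons are between classes of barcodes within the libraries.

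Mammalian red cells lose their nucleus at the end of their development. The resulting reticulocyte enters the blood with messenger RNA, ribosomes and mitochondria left over from its precursor, makes haemoglobin from them for a while, and destroys them as it matures. Haemoglobin is built from alpha-like and beta-like globin chains and haem, an iron-holding ring whose synthesis starts and ends in mitochondria. A dissociated tissue that was not perfused brings such blood cells along.

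The libraries summed to 20212520 and 7094752 UMIs, of which low-gene red barcodes held 8.29% and 6.66%, and 0.541% and 0.307% of the UMIs outside haemoglobin. In library 1 they had a median of 6036 UMIs (range 4544 to 10094) and 188 detected genes (77 to 298), and in library 2 a median of 8565.5 UMIs (3420 to 12873) and 167 genes (66 to 286). Their haemoglobin share had medians of 95.2% and 96.1%. Every barcode with fewer than 300 genes also passed the haemoglobin limit, with a lowest share of 88.9% in library 1 and 93.4% in library 2, so the gene limit alone decided membership. That limit cut a continuous range. The 24 and 4 barcodes just inside it (275 to 299 genes) had medians of 468.5 and 571 UMIs outside haemoglobin, and the 18 and 2 just outside it (300 to 324 genes) had 508 and 625. These values chose the barcodes and are given as description. The libraries shared 2 barcode sequences, neither of them a low-gene red barcode. No doublet caller was run on these barcodes.

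**Figure D1:**
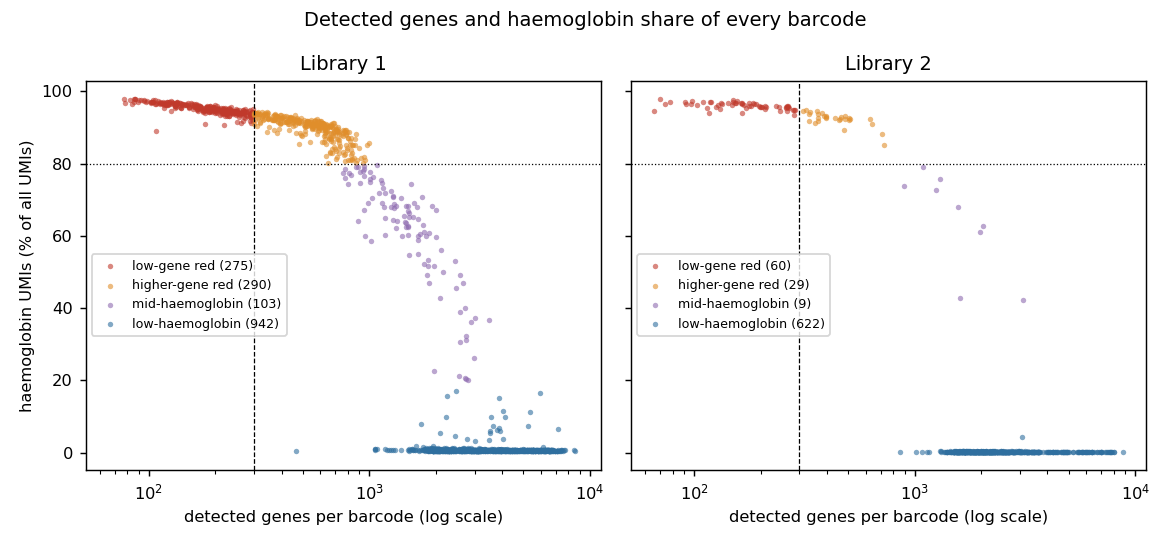
Each point is a barcode, with its number of detected genes on a log axis and the percentage of its UMIs from haemoglobin genes, and 1 panel per library. The dashed line is the limit of 300 genes and the dotted line the limit of 80%. No barcode lies to the left of the first and below the second, and the 275 and 60 low-gene red barcodes continue into the 290 and 29 higher-gene ones without a gap.

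A few low-gene red barcodes stood apart. In library 1, 1 barcode with 108 genes had 78.9% of its 517 UMIs outside haemoglobin from mitochondrial genes, and in library 2, 1 with 66 genes had 60.1% of 188. In 3 barcodes of library 1, Otos, otospiralin, a protein of cochlear fibrocytes, gave 79, 55 and 27 UMIs beside Ptgds and Apod, and 1 other held 71 UMIs of Mbp, myelin basic protein. Those 3 held 161 of the 327 Otos UMIs of library 1. Without the 15 and 2 barcodes in which mitochondrial genes gave over 30%, or markers of other cell types over 10%, of the UMIs outside haemoglobin, haem synthesis genes averaged 6.56% over the libraries in place of 6.45%, and clearance and late maturation 10.7% in place of 10.47%.

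The 4 adult haemoglobin genes that mark these cells were each seen in all 335 low-gene red barcodes. Hbb-bs gave 45.4% and 38.0% of haemoglobin UMIs in libraries 1 and 2, Hba-a1 25.6% and 29.5%, Hba-a2 19.6% and 24.5%, and Hbb-bt 9.45% and 7.98%. The coding sequences of Hba-a1 and Hba-a2 differ at 1 of 426 bases, and those of Hbb-bs and Hbb-bt at 1 of 441, so the split within each pair is uncertain. The embryonic genes Hbb-y and Hba-x had no UMI there, and Hbb-bh1 had 7 UMIs in each library. Of the erythroid markers outside haemoglobin, Alas2 was seen in every barcode. Bpgm, Fech, Mkrn1 and Bnip3l were each seen in 68.3% to 88.7% of them. Slc25a37, a mitochondrial iron importer, was seen in only 23.3% and 18.3%. Slc4a1, the band 3 anion exchanger of the red cell membrane, was rare, seen in 7.27% and 5.00%. The marker Ahsp was not analysed here.

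Outside haemoglobin a low-gene red barcode held a median of 290 UMIs in library 1 (100 to 594) and 287.5 in library 2 (90 to 690), and together they held 81562 and 19024. The 3 other classes serve for comparison. Higher-gene red barcodes had the same haemoglobin limit and at least 300 genes (290 and 29 barcodes, medians of 1055.5 and 953 UMIs outside haemoglobin). Mid-haemoglobin barcodes had 20% to under 80% haemoglobin (103 and 9), and low-haemoglobin barcodes, which hold all remaining cells of the cochlear suspension, had less (942 and 622, medians of 10497.5 and 5956.5). UMIs in low-gene red barcodes fell on 8159 genes in library 1 and 3323 in library 2, 2766 of them in both, but 3277 and 2024 of these genes had a single UMI. The rest was concentrated: the 10 most abundant genes took 21.7% and 27.0% of the UMIs outside haemoglobin, against 15.8% and 22.1% in higher-gene red and 9.89% and 11.1% in low-haemoglobin barcodes. Thinned to 100 UMIs outside haemoglobin each, low-gene red barcodes showed medians of 77 and 71 genes, higher-gene red 83 and 75, and low-haemoglobin 88 and 88. Thinning left out 1 low-gene red barcode of library 2. The number of genes chose these barcodes, so these values are a description.

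The transcript that led outside haemoglobin was Alas2, the erythroid form of the enzyme that starts haem synthesis. It gave 3886 of the UMIs in library 1 (4.76%) and 1058 in library 2 (5.56%), 5.16% ± 0.564 (SD, n = 2), and a barcode held a median of 14 and 18 Alas2 UMIs (1 to 32 and 1 to 40). Ftl1, the light chain of the iron store ferritin, followed with 2.84% and 4.09%, and it too was seen in every barcode. The next were the mitochondrial genes mt-Atp6 (2.32% and 3.25%) and mt-Co3 (2.31% and 3.06%), then, with mt-Co1 between them, Mkrn1, a ubiquitin ligase (1.71% and 1.80%), Ubb, which encodes ubiquitin (1.47% and 2.04%), and Bpgm, which makes the 2,3-bisphosphoglycerate that lowers haemoglobin's grip on oxygen (1.61% and 1.78%). The same genes were also read in low-haemoglobin barcodes, and whether free RNA in the suspension brought them there was not tested. With each barcode thinned to 100 UMIs, Alas2 was seen in 98.5% and 98.3% of low-gene red barcodes, in 85.2% and 86.2% of higher-gene red ones, and in 0.743% and 0% of low-haemoglobin ones, where 0 of 622 allows up to 0.482%. Unthinned, 29.0% and 5.79% of low-haemoglobin barcodes had an Alas2 UMI.

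**Figure D2:**
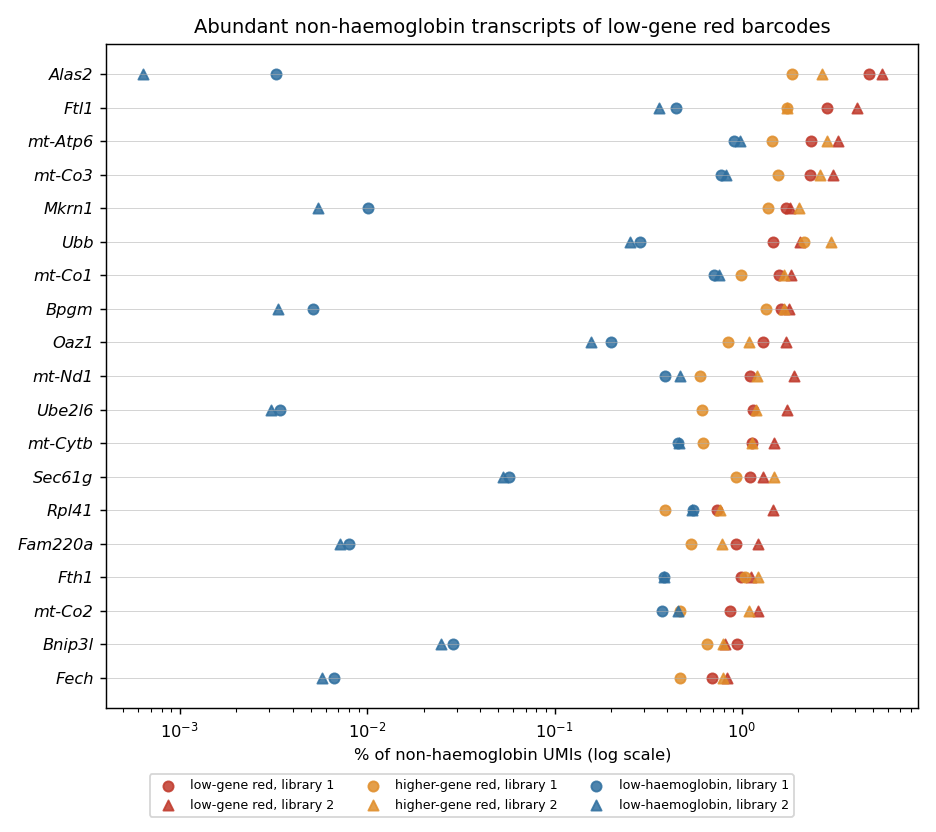
Percentages of UMIs outside haemoglobin, on a log axis, for 19 of the genes with the highest mean share in low-gene red barcodes. Circles are library 1 and triangles library 2, and colours are barcode classes. Alas2 leads at 4.76% and 5.56%, and for Alas2, Bpgm and Ube2l6 the low-haemoglobin points lie at or below 0.00515%.

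Alas2, Ftl1 and Fth1 share a regulatory element, the iron-responsive element, a hairpin in the 5′ untranslated region of the messenger RNA to which iron regulatory proteins bind when iron is scarce and hold back translation. The elements are shown because these are the transcripts of haem and iron supply that stayed most abundant. They were found by a search of the sense strand of annotated 5′ untranslated regions (mm10, GENCODE release M21) for 17 bases: a C, 5 bases, CAGTG, 1 base other than G, and 5 bases that pair with the first 5 (G with T allowed). Of 20580 genes with a region long enough, 23 hold a match (0.1118%). The capitals mark the loop of the hairpin, and each sequence is written 5′ to 3′ on the gene's strand.
Alas2: cgtcctCAGTGCagggc
Fth1: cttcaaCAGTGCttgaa
Ftl1: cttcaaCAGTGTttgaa
The Alas2 element lies in exon 1 at chrX:150547464-150547480 on the plus strand, that of Fth1 in exon 1 at chr19:9982738-9982754 on the plus strand, and that of Ftl1 in exon 1 at chr7:45459785-45459801 on the minus strand. The ferritin elements have the same stem. A match is a description of the sequence, and counts of messenger RNA do not show whether it was translated.

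Counts outside haemoglobin were summed per library and class and compared with edgeR's quasi-likelihood test, with the library as a block and Benjamini-Hochberg adjustment over 3884 genes. The total of each sum was rescaled by a factor (TMM). In libraries 1 and 2 it was 0.786 and 0.982 for low-gene red, 0.829 and 0.811 for higher-gene red and 1.41 and 1.25 for low-haemoglobin sums. Log2 fold changes, given with their standard errors, are of shares of these rescaled totals and so differ from ratios of the printed shares. Against low-haemoglobin barcodes the factors raise them. A gene with a higher share can still have fewer UMIs per barcode. Against higher-gene red barcodes, 91 genes had an adjusted p under 0.05 (2.34% of the genes tested). Of these, 90 were lower (2.32%) and 1 was higher (0.0257%), while 331 genes had an unadjusted p under 0.05. The median log2 fold change over all genes was −0.10. The red classes were split by the number of detected genes. The direction of these calls, here and in the lists below, is therefore not independent of that rule. Against low-haemoglobin barcodes, 243 genes passed (6.26%), 217 higher (5.59%) and 26 lower (0.669%), with 563 at an unadjusted p under 0.05 and a median of −0.25. Of the 90 lower genes, 42 (46.7%) were also among the 217 (19.4% of them), lower than in fuller red barcodes and higher than in other cells. In low-gene red barcodes 8 of the 90 had no UMI, 38 had 1 to 9 and 44 had 10 or more, and 86 were lower in both libraries. Leaving out the 17 low-gene red barcodes that stood apart gave 94 and 254 genes. The comparison with higher-gene red barcodes moved with the haemoglobin limit. A limit of 90% left 167 and 26 higher-gene red barcodes, put 226 and 12 in the mid-haemoglobin class, and left 2137 genes to test in place of 3884. There 18 genes were lower and 3 higher, and 19 of these 21 were among the 91. Which of these changes moved the count was not tested.

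**Figure D3:**
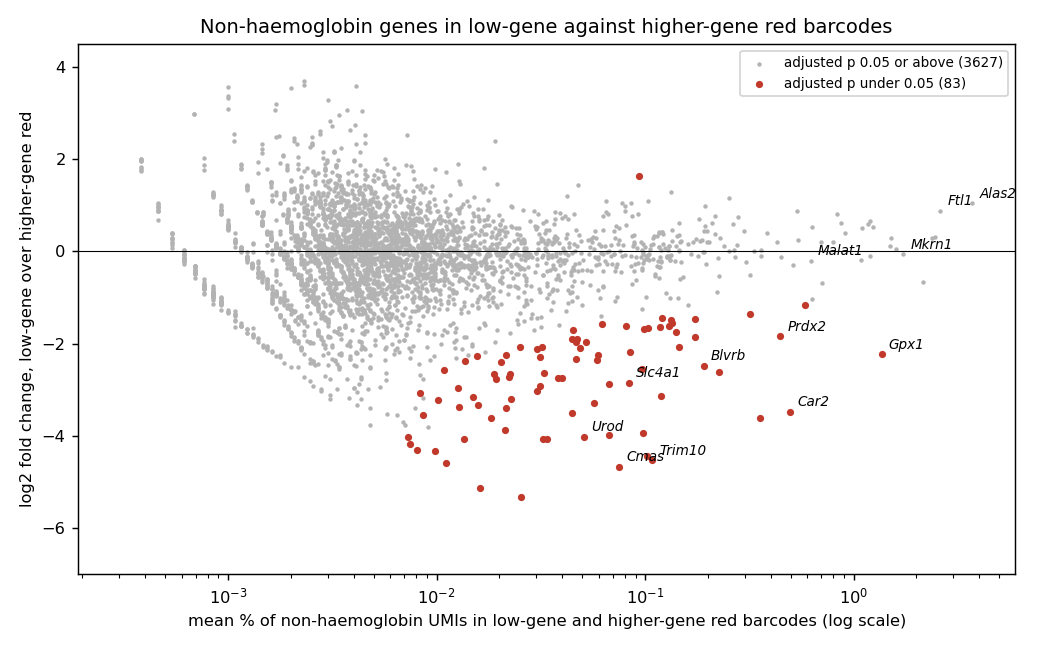
Each point is a gene, with the mean of its percentages of UMIs outside haemoglobin in low-gene and higher-gene red barcodes on a log axis and its edgeR log2 fold change between them; red points had an adjusted p under 0.05. Nearly all red points lie below 0, and the most abundant genes, Alas2 and Ftl1, lie above 0 without passing the test. The 174 genes with no UMI in low-gene red barcodes and 6 outside the axis are not drawn.

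Haem synthesis genes gave 5.94% of UMIs outside haemoglobin in library 1 (exact binomial 95% interval 5.78 to 6.10) and 6.96% in library 2 (6.60 to 7.33). The list gave 3.02% and 4.09% in higher-gene red barcodes and 0.0736% and 0.0495% in low-haemoglobin ones. Alas2 carried most of it, and its share was higher than in higher-gene red barcodes in both libraries (4.76% and 5.56% against 1.85% and 2.68%). That difference, a log2 fold change of 1.04 ± 0.33, missed the threshold (edgeR adjusted p = 0.0558; 0.00735 to 1 over the alternatives). Per barcode the order was opposite, with 14.1 and 17.6 Alas2 UMIs against 20.7 and 27.2. Fech, ferrochelatase, which puts iron into the finished ring, had 0.690% and 0.836% against 0.469% and 0.796%, and a log2 fold change of 0.21 ± 0.34. Urod, uroporphyrinogen decarboxylase, an enzyme between these ends, had 7 and 0 UMIs against 402 and 21 in higher-gene red barcodes, a log2 fold change of −4.02 ± 0.58 (adjusted p = 2.87e-09). Of the 15 list genes tested, 2 were lower and none higher than in higher-gene red barcodes (median log2 fold change −0.75). Over all genes tested 2.32% were lower and the median was −0.10. Against low-haemoglobin barcodes 6 were higher and none lower, beside 5.59% higher over all genes. Among the 6 were Alas2 (11.997 ± 0.507), Fech (7.42 ± 0.44), Isca1, an iron-sulphur cluster protein (6.78 ± 0.45), Slc25a37, the mitochondrial iron importer mitoferrin (6.37 ± 0.46), and Slc25a39.

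Iron handling genes gave 4.06% and 5.38%, against 3.44% and 3.63% in higher-gene red and 0.959% and 0.856% in low-haemoglobin barcodes. The ferritin chains made up nearly all of it. Ftl1 had 2.84% and 4.09% against 1.74% in each library of higher-gene red barcodes, a log2 fold change of 0.88 ± 0.32 that did not pass the test (adjusted p = 0.183; 0.00395 to 1 over the alternatives, passing with 4 of them). Fth1, the heavy chain, had 0.987% and 1.12% against 1.04% and 1.22% and differed by −0.19 ± 0.33. Ftl1 has processed copies in the genome, and reads that fit several copies could have been lost or split. Of 10 genes tested, 2 were lower than in higher-gene red barcodes. Over all genes tested 2.32% were lower there, and 5.59% were higher than in low-haemoglobin barcodes. Blvrb, biliverdin reductase B, had 63 and 7 UMIs against 1074 and 94 and was lower by −2.48 ± 0.40 (adjusted p = 1.44e-07), and Glrx5, a glutaredoxin of iron-sulphur cluster assembly, had 57 and 17 against 751 and 89 and was lower by −1.86 ± 0.39 (adjusted p = 0.000303). Both calls held with the 90% haemoglobin limit. Against low-haemoglobin barcodes 4 genes were higher: Ftl1 (3.57 ± 0.35), Glrx5, Blvrb and Fth1 (1.95 ± 0.34). Tfrc, the transferrin receptor that brings iron into erythroid cells, had 3 UMIs in library 1 and none in library 2, where 0 counts allow up to 0.0158%. Higher-gene red barcodes had 38 and 2 Tfrc UMIs, and the difference was not detectable at this depth (adjusted p = 0.548).

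Transcripts of peroxide, glutathione and CO2 handling, which protect haemoglobin from oxidation and carry CO2, had a lower share in low-gene than in higher-gene red barcodes. They gave 1.47% and 1.10% of UMIs outside haemoglobin against 4.81% and 4.46%, with low-haemoglobin barcodes at 0.531% and 0.398%. Gpx1, glutathione peroxidase 1, had 578 and 59 UMIs in low-gene red barcodes (0.709% and 0.310%) and 7137 and 654 in higher-gene red ones (2.21% and 2.22%). It was the most abundant gene with a call and was lower by −2.23 ± 0.35 (edgeR adjusted p = 4.39e-08), in each library. Car2, carbonic anhydrase 2, had 60 and 20 UMIs against 3392 and 224 and was lower by −3.48 ± 0.39 (adjusted p = 1.57e-15). Prdx2, peroxiredoxin 2, had 151 and 43 against 2365 and 187 and was lower by −1.84 ± 0.36 (adjusted p = 4.86e-05). The calls of Gpx1, Car2 and Prdx2 held under each alternative of the fit that tested them. Of 19 genes tested, 5 were lower than in higher-gene red barcodes and none was higher, with a median of −1.01. The others were Cat, catalase (−1.44 ± 0.42), and Gclm, of glutathione synthesis (−1.55 ± 0.40). Among all genes tested 2.32% were lower (median −0.10), and 5.59% were higher than in low-haemoglobin barcodes. Against low-haemoglobin barcodes 7 were higher and none lower, among them Gpx1 (4.63 ± 0.38), Cat (4.81 ± 0.45) and Hagh, glyoxalase 2 (4.49 ± 0.42).

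Membrane and skeleton genes, whose proteins give the red cell its shape, gave 1.21% and 1.09% against 2.90% and 2.56% in higher-gene red barcodes, and 0.575% and 0.435% in low-haemoglobin ones. Slc4a1 had 23 and 3 UMIs against 601 and 31 and was lower by −2.85 ± 0.48 (adjusted p = 1.1e-06), a call that was lost without the block (−2.65, adjusted p = 0.696) and with the 90% limit (−2.00, adjusted p = 0.456). Epb42, protein 4.2, had 3 and 0 against 132 and 12 and was lower by −3.87 ± 0.77. Not every transcript of the group was low: Cd24a, a small surface glycoprotein, had 0.537% and 0.599% against 0.811% and 0.887% (−0.68 ± 0.34, adjusted p = 0.544), and Epb41, protein 4.1, 0.141% and 0.105% against 0.120% and 0.163% (−0.19 ± 0.40). Of 35 genes tested, 9 were lower and none higher (median −1.62), beside 2.32% lower and a median of −0.10 over all genes tested. With the 90% limit 1 of 33 was lower, Mpp1, beside 18 of 2137 over all genes. Against low-haemoglobin barcodes 11 were higher and none lower, beside 5.59% higher over all genes.

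Clearance and late maturation genes, a list of ubiquitin, autophagy and other transcripts of the last steps before the mature red cell, gave 10.53% and 10.4%, beside 9.33% and 12.5% in higher-gene red and 1.27% and 1.26% in low-haemoglobin barcodes. None of its most abundant members passed the test between the red classes. Mkrn1 had 1.71% and 1.80% against 1.37% and 2.03% (log2 fold change −0.06 ± 0.33). Bnip3l, the receptor through which reticulocytes remove mitochondria, had 0.940% and 0.810% against 0.648% and 0.792% (0.19 ± 0.34). Ube2l6, a ubiquitin- and ISG15-conjugating enzyme, had 1.15% and 1.75% against 0.616% and 1.19% (0.61 ± 0.33). For Mkrn1 the share was higher in library 1 and lower in library 2. Of 43 genes tested, 1 was higher and 5 were lower, led by Trim10, a ubiquitin ligase of late erythroid cells (9 and 1 UMIs against 545 and 73; −4.53 ± 0.54, adjusted p = 5.13e-14), and Xpo7, a nuclear transport factor (3 and 1 against 256 and 14; −4.06 ± 0.68). With the 90% haemoglobin limit Trim10 kept a log2 fold change of −3.51 without passing the test (0.727), and that of Xpo7 was 0.25. Against low-haemoglobin barcodes 24 of the 43 were higher and 1 lower, with a median of 2.72. Among the 24 were Ube2l6 (9.24 ± 0.47), Fam46c (8.35 ± 0.48), Mkrn1 (8.34 ± 0.44) and Isg20 (8.22 ± 0.47). Over all genes tested 5.59% were higher there (median −0.25), and 2.32% were lower than in higher-gene red barcodes.

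Among glycolysis and bisphosphoglycerate genes, which power a cell that will have no mitochondria, Bpgm made up most of the 1.81% and 1.99% (1.52% and 1.84% in higher-gene red, 0.351% and 0.364% in low-haemoglobin barcodes). Bpgm had 1.61% and 1.78% against 1.34% and 1.67%, a log2 fold change of 0.05 ± 0.33, and 9.14 ± 0.46 against low-haemoglobin barcodes (adjusted p = 5.14e-83). None of 12 genes passed against higher-gene red barcodes, and Bpgm alone did against low-haemoglobin ones. Gapdh, abundant in most cells, had 29 and 8 UMIs, 0.0356% and 0.0421%, under the 0.114% and 0.126% of low-haemoglobin barcodes without passing the test (−1.15 ± 0.43, adjusted p = 0.106).

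Other genes that were lower than in higher-gene red barcodes belong to none of these lists. Cmas, which activates sialic acid, had 6 and 0 UMIs against 419 and 48 and was lower by −4.67 ± 0.59 (adjusted p = 1.39e-12). It held with the 90% haemoglobin limit. St3gal5, a sialyltransferase of ganglioside synthesis (5 and 3 against 363 and 40; −3.98 ± 0.58), and Tmcc2 (8 and 2 against 857 and 36; −4.44 ± 0.54) did not, and neither did Tcp11l2 (3 and 1 against 281 and 10; −4.07 ± 0.70). The gene 1600020E01Rik had 1 and 0 UMIs against 93 and 21, with −5.32 ± 0.97, and held.

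Against low-haemoglobin barcodes genes outside the lists included Rec114 (9.47 ± 0.55; 57 and 24 UMIs against 38 and 4) and Fam220a (7.62 ± 0.44; 763 and 233 UMIs, 0.935% and 1.22%). Hbq1a and Hbq1b, theta-globin genes whose symbols the haemoglobin rule did not cover and which were picked after their values were seen, had 44 and 8 and 32 and 8 UMIs against 10 and 0 and 12 and 0, with 10.56 ± 0.66 and 10.02 ± 0.64. Sec61g, part of the channel through which proteins enter the endoplasmic reticulum, and Oaz1, an inhibitor of polyamine synthesis, were seen in most low-gene red barcodes (83.6% and 90%, and 94.2% and 95%). Sec61g was higher by 4.92 ± 0.38 and Oaz1 by 3.56 ± 0.36.

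The transcription factors that drive the erythroid programme gave 0.102% and 0.0841% of UMIs outside haemoglobin, beside 0.210% and 0.150% in higher-gene red, 0.519% and 0.585% in mid-haemoglobin and 0.0758% and 0.0547% in low-haemoglobin barcodes. Of 17 tested, 3 were higher and none lower than in low-haemoglobin barcodes: E2f2 (4.84 ± 0.71), Gata1, the master factor of the lineage (3.99 ± 0.99; 6 and 0 UMIs against 132 and 4), and Lmo2 (3.31 ± 0.53). Against higher-gene red barcodes 2 were lower and none higher. Of all genes tested 2.32% were lower there, and 5.59% were higher than in low-haemoglobin barcodes. Lmo2, a bridging factor of the erythroid complex, had 16 and 5 UMIs against 218 and 20 (−1.71 ± 0.51, adjusted p = 0.0366), and Sox6, a repressor of embryonic globin genes that was picked after its values were seen, had none against 40 and 0. With the counts of both libraries pooled, the floor of 3 counts makes Sox6 at least 3.80-fold lower. All 40 UMIs came from library 1, and neither red class of library 2 had a Sox6 UMI. Both calls were lost with DESeq2's test (adjusted p = 0.0822 and 0.212), without the block and with the 90% limit. Cell division genes gave 0.407% and 0.263%, near the 0.535% and 0.354% of higher-gene red barcodes and under the 3.08% and 2.82% of mid-haemoglobin ones, and none of 30 passed in either comparison. Ube2c, a cell cycle ubiquitin-conjugating enzyme, led them with 82 and 22 UMIs, against 693 and 63 in higher-gene red and 1328 and 27 in low-haemoglobin barcodes. Against the latter its log2 fold change was 5.41 ± 1.28 (edgeR adjusted p = 0.121), and it passed without the filter (5.11, adjusted p = 3.1e-18), with DESeq2's test (5.48, adjusted p = 0.000312), with a limit of 200 genes (3.95, adjusted p = 1.24e-09) and with the mitochondrial limit (5.41, adjusted p = 0.0361). With the limit of 200 genes it was also lower than in higher-gene red barcodes (−2.75, adjusted p = 0.000127). Nuclear long non-coding RNA gave 0.614% and 0.641%, against 0.807% and 0.541% in higher-gene red and 3.90% and 4.45% in low-haemoglobin barcodes. Malat1, a nuclear RNA abundant in nucleated cells, made up nearly all of it with 480 and 116 UMIs (0.589% and 0.610%) and was lower than in low-haemoglobin barcodes by −2.31 ± 0.34 (edgeR adjusted p = 4.65e-10). It was still seen in 81.8% and 83.3% of low-gene red barcodes, and, thinned to 100 UMIs, in 45.1% and 45.8% of them against 82.0% and 91.2% of low-haemoglobin ones. Against higher-gene red barcodes it differed by −0.20 ± 0.33, while thinned to 100 UMIs it was seen in 37.2% and 31.0% of those, fewer than of low-gene red ones. Of the 4 long non-coding RNAs tested none passed there.

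The machinery that reticulocytes inherit was still represented. Cytoplasmic ribosomal protein genes gave 11.03% and 10.6%, against 9.82% and 8.37% in higher-gene red and 20.4% and 20.997% in low-haemoglobin barcodes. None of 84 passed against higher-gene red barcodes (median 0.08). Against low-haemoglobin ones 8 were lower and 1 higher (median −0.62), the higher one being Rpl41 (1.40 ± 0.33). Over all genes tested 0.669% were lower (median −0.25). Without scaling factors 69 ribosomal protein genes were lower, beside 442 of all 3884 genes tested. Ribosomal protein genes have many processed copies, and Rps27rt and Rpl6l, 2 of the 8, are such copies of Rps27 and Rpl6. Translation factors gave 2.35% and 2.24%, beside 2.53% and 2.64%. Of 28 tested, 3 were lower than in higher-gene red barcodes: Eif5, which helps start translation (−2.63 ± 0.40, adjusted p = 2.41e-08, and held with the 90% limit), Pabpc1, the poly(A)-binding protein (318 and 69 UMIs against 2312 and 260; −1.16 ± 0.35, adjusted p = 0.0366), and Eif2ak1, the haem-regulated kinase that slows translation when haem is short (1 and 0 UMIs against 71 and 2; −4.18 ± 1.09, adjusted p = 0.00725). The calls of Pabpc1 and Eif2ak1 were lost with the 90% limit (0.998 and 0.967) and with DESeq2's test (0.0809 and 0.0820). Tpt1, Eif1, Eif5 and Pabpc1 were higher than in low-haemoglobin barcodes and Eif2s2 was lower. Over all genes tested 5.59% were higher and 0.669% lower there, and 2.32% were lower than in higher-gene red barcodes.

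Mitochondrially encoded transcripts gave 10.4% and 14.5% of UMIs outside haemoglobin, against 6.18% and 12.014% in higher-gene red, 3.08% and 3.66% in mid-haemoglobin and 4.06% and 4.57% in low-haemoglobin barcodes. All 13 genes were tested. None passed against higher-gene red barcodes, with a median log2 fold change of 0.53, and 12 were higher than in low-haemoglobin barcodes, with a median of 2.03 that was 1.42 without scaling factors. mt-Nd1, a subunit of respiratory complex I, had 1.10% and 1.89% against 0.597% and 1.20% (0.66 ± 0.33) and was higher than in low-haemoglobin barcodes by 2.23 ± 0.34. Of all UMIs, haemoglobin included, mitochondrial ones were a median of 0.386% and 0.495% per low-gene red barcode, and a limit of 20% on that share removed none. The value varied widely between barcodes: of the UMIs outside haemoglobin it ran from 0.621% to 78.9% in library 1 and from 3.23% to 60.1% in library 2.

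**Figure D4:**
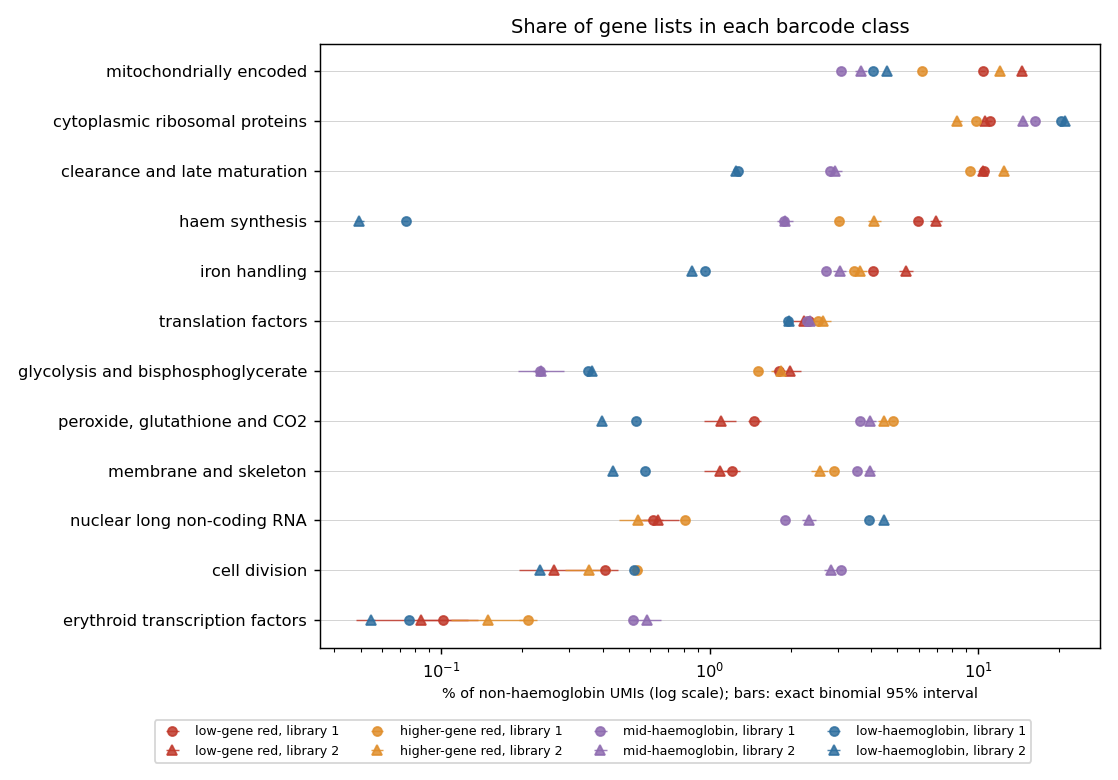
Percentages of UMIs outside haemoglobin, on a log axis, for 12 gene lists in the 4 barcode classes, with circles for library 1, triangles for library 2 and exact binomial 95% intervals that cover counting error only. Haem synthesis is highest in low-gene red barcodes in both libraries (5.94% and 6.96%), while peroxide, glutathione and CO2 (1.47% and 1.10%) and membrane and skeleton (1.21% and 1.09%) lie under higher-gene red barcodes.

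The low-gene red barcodes were not alike among themselves. They were described in 3 ranges of detected genes, under 150 (82 and 21 barcodes), 150 to 224 (110 and 24) and 225 to 299 (83 and 15), with no test, since the number of genes chose them. The share of Alas2 was 7.14%, 4.93% and 3.63% from fewest to most genes in library 1, and 6.65%, 5.60% and 4.98% in library 2. That of Ftl1 was 3.80%, 2.78% and 2.51%, and 6.57%, 4.32% and 2.63%. The barcodes with fewest genes thus had the highest shares of both. Per barcode the order of Alas2 was opposite, with 12.5, 14.5 and 15.2 UMIs in library 1 and 12, 17.9 and 25.1 in library 2. Ftl1 per barcode was 6.68, 8.16 and 10.5 in library 1 and 11.9, 13.8 and 13.3 in library 2. Gpx1 went the other way, from 0.139% over 0.609% to 1.04% in library 1 and from 0.0527% over 0.222% to 0.529% in library 2, and Bpgm from 0.937% to 1.86% and from 1.08% to 2.30%. The peroxide, glutathione and CO2 list was at 0.611% and 0.501% in the barcodes with fewest genes and at 1.94% and 1.63% in those with most, and membrane and skeleton at 0.784% and 0.369%, and 1.40% and 1.27%. Ribosomal protein genes stayed between 10.3% and 12.1% in every range and library. Mitochondrial transcripts were highest in the barcodes with fewest genes (15.1% and 19.1%). They were at 9.14% and 14.5% in the middle range and 9.56% and 12.3% in barcodes with most genes. The barcode of highest mitochondrial share in each library, with 108 and 66 genes, lay in the lowest range. What such barcodes added to its values was not tested. Within low-gene red barcodes the values of Gpx1, Alas2 and Ftl1 came nearer, with more genes, to those of higher-gene red ones. Those of Bpgm rose past the values of higher-gene red barcodes.

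**Figure D5:**
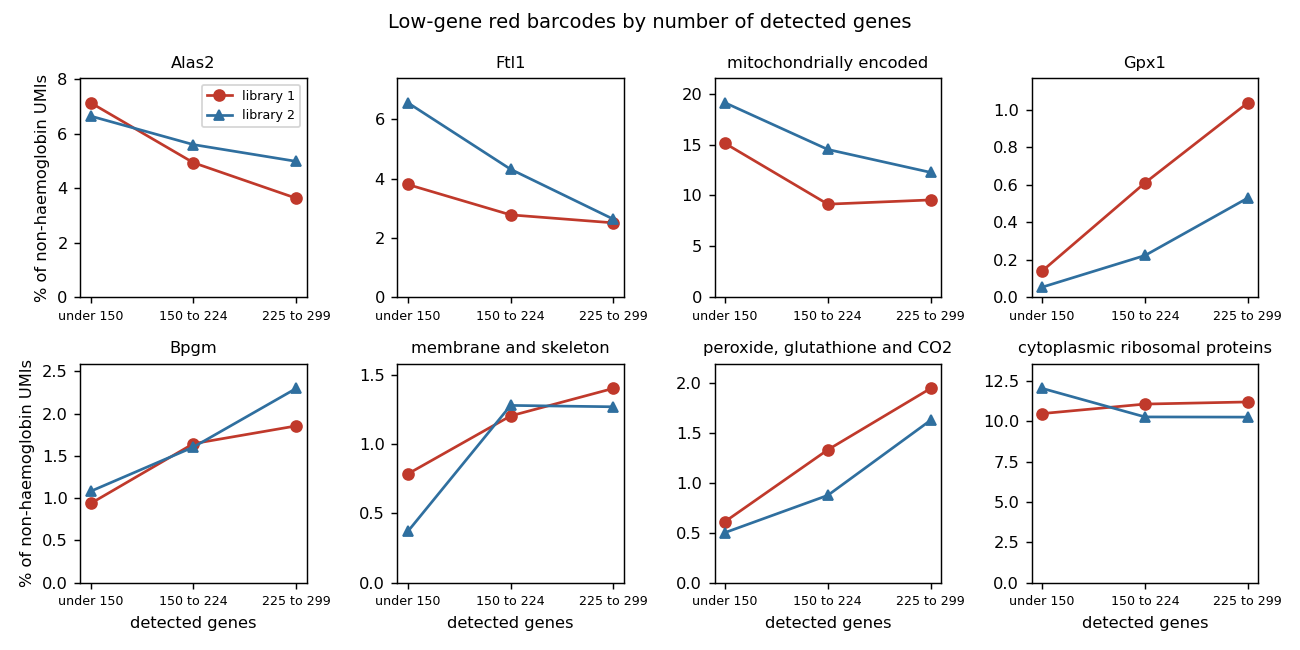
Percentages of UMIs outside haemoglobin in low-gene red barcodes with under 150, 150 to 224 and 225 to 299 detected genes, with 1 line per library and 1 panel per gene or list, each axis starting at 0. Alas2 and Ftl1 are highest where fewest genes were detected, Gpx1 and the peroxide, glutathione and CO2 list are lowest there (0.139% and 0.0527% for Gpx1), and ribosomal proteins stay between 10.3% and 12.1%.

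Markers of other cell types were counted in low-gene red barcodes too. Of 107 markers of 12 other cell types, 79 had a UMI in low-gene red barcodes, 2193 UMIs in all. A barcode held a median of 5 and 3 marker UMIs (0 to 100 and 0 to 10), a higher-gene red barcode 20 and 9 (5 to 132 and 4 to 25) and a low-haemoglobin barcode 244 and 142.5. As a share of UMIs outside haemoglobin that was 2.41% and 1.20%, 1.96% and 0.935%, and 2.68% and 2.32%. By cell type, the share for fibrocyte and Coch mesenchyme was 0.812% and 0.384% in low-gene red and 0.630% and 0.671% in low-haemoglobin barcodes. That for neuron and Schwann was 0.211% and 0.0210% against 0.0631% and 0.0258%. Both lists were thus higher in low-gene red barcodes of library 1 and lower in those of library 2. The library 1 shares were 0.586% and 0.129% without its 15 barcodes that stood apart, 5 of them left out for their marker share. The first of these lies under the 0.630% of low-haemoglobin barcodes. Fibroblast markers gave 0.444% and 0.347% against 0.584% and 0.687%. Neutrophil lineage markers gave 0.477% and 0.0473%, and the share in low-gene red barcodes was under 0.150% in each library for cochlear epithelium, hair cell, cartilage and bone, stria and melanocyte, B lineage, macrophage and monocyte, endothelium and platelet markers. The platelet list had 5 UMIs in all, with Itga2b, Itgb3, Gp1bb, Nrgn and Clec1b at 0. Other markers at 0 included Cdh5, Kdr and Flt1 of endothelium, Csf1r and Adgre1 of macrophages, Snap25 of neurons, Fabp7 of cochlear epithelium and Kcnq1 of the stria vascularis. Several were rare in the far deeper low-haemoglobin sums too, such as Itgb3 (24 and 9 UMIs), Adgre1 (71 and 41) and Kcnq1 (10 and 70). At the depth of low-gene red barcodes a 0 for such a marker does not show absence. Neutrophil markers were higher in library 1 than in library 2 in these barcodes and in low-haemoglobin ones (0.734% and 0.171%). S100a8, the most abundant, had 138 and 3 UMIs here and 41021 and 3745 there. No marker of another cell type that was tested passed between low-gene and higher-gene red barcodes. The filter on counts left many untested. All 10 neutrophil lineage markers were tested, but only 3 of neuron and Schwann, 2 of cochlear epithelium, 1 of endothelium and no platelet marker. Against low-haemoglobin barcodes Otos (3.82 ± 0.42) and Mbp (4.39 ± 0.52) were higher and Kcnk2 and Ebf1 lower. Mbp rested on library 1, with 148 and 0 UMIs and a value of −3.57 in library 2 alone, and Otos lost its call without the block (adjusted p = 0.182). Their part in the other results was not tested.

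Across the 246 genes with a mean share of at least 0.05% in low-gene red barcodes, the shares of the libraries ranked alike with a Spearman rho of 0.689. Low-gene and higher-gene red barcodes of the same library gave 0.775 and 0.741, and low-gene red and low-haemoglobin barcodes 0.374 and 0.228. Genes are not independent replicates, sums of 1 library share its free RNA, and these values are descriptions. The low-gene red sums of the libraries differed from each other by more than counting error (chi-square of 2038 over 508 degrees of freedom, 4.01 per degree), so they were not a library deposited again.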

How the data were processed

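Droplet single-cell RNA was counted in 2 libraries of 1 group. For each barcode the authors deposited raw UMI counts of 27998 genes. Cell Ranger 2.1.0 and mm10 are named in the submitters' processing notes. The sources used here do not give how barcodes were selected or how multi-mapping reads and strand were handled. The members, gene lists and tests were chosen with earlier results of these data known.

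Barcodes were put in 4 classes, and counts outside haemoglobin were summed per class and library (8 sums). They were fitted with edgeR 4.0.16 (R 4.3.3, limma 3.58.1) by robust quasi-likelihood, with TMM scaling, a filterByExpr minimum of 10 counts, and the library as replicate block, because the classes of a library share its free RNA and depth. All 4 classes shared 1 estimate of the spread (common dispersion 0.0681), which left 3 residual degrees of freedom. The median prior degrees of freedom were infinite, so the spread of most genes was taken wholly from the trend over all genes, and the smallest p-values rest on that. Benjamini-Hochberg adjustment ran over 3884 genes with a threshold of 0.05. Each SE is the absolute log2 fold change over the square root of its F. DESeq2 1.42.0 was an alternative. Shares, intervals and the sequence search used Python 3.11.15 (numpy 2.4.6, pandas 2.3.3, scipy 1.17.1). Intervals and the limit of 3 counts cover counting error only. Counts were also simulated for the comparison of the red classes (3651 genes). Among genes with at least 5 expected counts the fit recovered 72% of 4-fold increases, 64% of 4-fold decreases, and 4% and 20% of 2-fold changes. It recovered none of the 4-fold decreases among genes with fewer counts, and called 4 of 3459 unchanged genes. These counts were drawn from the fit's own means and trend of spread, with no choice of barcodes by gene number. They therefore cannot show errors from the rule or from genes whose spread departs from the trend.

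Genes were named as follows: the 20 with the highest mean share in low-gene red barcodes; in each comparison the 10 with the largest change in each direction among those with an adjusted p under 0.05, the same direction in both libraries and at least 10 counts in each library of the higher class; of each list the 4 most abundant and any at 0 with at least 100 counts in higher-gene red barcodes; and 20 fixed genes. Of these, the genes most worth describing appear in the text, and other list members with a call were named after their values were seen. Alternatives were another scaling, filter and tool, no replicate block, other limits on genes, haemoglobin and mitochondrial share, membership from a separate set of genes, and each library left out. Some genes that the rule names are not reported here.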

Additional observations from a re-analysis of the deposited data

How the results depend on the processing

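The main comparisons found 91 and 243 genes. The library served as replicate block throughout. Without the replicate block the comparison with higher-gene red barcodes gave 36 genes, all of them among the 91, and that with low-haemoglobin barcodes 196. Without the filter on low counts the comparison with higher-gene red barcodes gave 45, and with the 90% haemoglobin limit 21 of 2137 genes tested (3 higher, 14.3%). Membership was also set by the number of detected genes with odd identifiers and the test run on those with even ones. This gave 58 and 144 genes, against 54 and 134 for the same genes with the usual membership, on fewer genes tested. Of the usual low-gene red barcodes, 274 of 275 and 60 of 60 were kept, so nearly the same barcodes were compared. The near counts therefore do not separate the test from the rule. The alternatives of the outlying barcodes and of the even-numbered genes with the usual membership were chosen after seeing the data. Without scaling factors the comparison with low-haemoglobin barcodes gave 627 genes, 29.5% of them higher in place of 89.3%, as the median over all genes moved to −0.93. With a limit of 200 genes 68.1% of 216 were higher. The other alternatives (DESeq2's size factors and test, mitochondrial genes or barcodes left out) gave counts within 1.5 times, DESeq2's test with 8 of 68 genes higher (11.8%) against higher-gene red barcodes.

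The limit of 200 genes also moved the median of UMIs outside haemoglobin from 288.75 to 227, and the mean shares to 7.41% for haem synthesis, 9.47% for clearance and late maturation, 0.943% for membrane and skeleton and 0.804% for peroxide, glutathione and CO2. Clearance and late maturation was 10.7% without the outlying barcodes. Reversed directions of genes with a call were few. With the 90% haemoglobin limit Xpo7 was reversed (0.25). Without replicate 1 Sox6 (0, no UMI in either class, and −7.96 without replicate 2), Epb42 (−0.55, and 4.17) and Mbp (−3.57, and 4.62) were. Those of Epb42 and Mbp are against low-haemoglobin barcodes. The cause was not tested. Of the other values for named genes, 61 lost a call and 45 gained one. The remaining 3105 kept their side of the threshold or, with a library left out, had no test. A change of sign in a gene without a call was counted among these 3105. With 1 library no residual degrees of freedom remain, so counts without a library were not run. Depth is a limit: a gene with 0 UMIs could have up to 0.00368% in library 1 and 0.0158% in library 2.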
